A study of Mus musculus with 8 samples.

Results

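The genes described here are those that copy the genome in S phase: a list of 44 mouse genes for origin licensing, the replication fork, the supply of nucleotides and the copying of chromatin marks. A member counted as measured where the array's annotation named a probe set for it, and the probe set with the brightest mean over the 8 arrays stood for each gene. By this rule 42 of the 44 were measured, among 12393 genes in all. Gins2 and Chaf1a had no probe set named by the annotation and are not analysed here.

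RNA came from intestinal epithelial cells of mice in 4 groups of 2 arrays each, on a mixed C57BL/6, 129Sv and FVB background. The wild type (WT) carried neither allele. The second group (IKKa-AA) carried IkkαAA/AA, a mutant form of the kinase IKKα. The third (bCATca) carried β-catc.a., a stabilised β-catenin restricted to the intestinal epithelium, and the double mutants (bCATca_IKKa-AA) carried both. Mice of all 4 groups, the wild type included, were given tamoxifen by gavage for 5 days in a row, with cells taken 15 days from the start of dosing. The transgene that drives recombination, the age of the mice, and whether the 2 arrays of a group stand for separate animals are not given in the sources used here. The p-values therefore measure the spread between these samples, which may be technical in the groups other than WT. The WT arrays came from different animals, since only WT replicate 1 had high Xist, the RNA of the inactive X, and low Y-linked genes. Xist stood at 9.18 there and between 3.56 and 4.03 on the 7 other arrays, and the Y-linked gene Eif2s3y at 2.02 against 7.25 to 7.56. The array of female type thus sits in the control group alone, and its part in the comparisons with WT was not tested beyond leaving it out.

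DNA replication starts at origins that are licensed in G1, when the origin recognition complex, Cdc6 and Cdt1 load the ring of Mcm2 to Mcm7 proteins onto DNA. In S phase Cdc45 and the GINS complex turn this ring into the active helicase, primase and the polymerases copy both strands, and the clamp Pcna holds the polymerases on DNA. In the intestine these genes are read mainly in the dividing cells of the crypt, where Wnt signalling through β-catenin keeps cells cycling, and are shut off as cells differentiate on the way to the villus. Many of them are known targets of the E2F transcription factors, which are held back by the retinoblastoma protein.

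Values are log2 intensities, and a difference is the difference between the means of 2 groups on that scale. Median linear intensity per array lay between 50.9 and 53.8. The labelled tissue was borne out by its markers: summed over 10 epithelial markers, the linear level ranged from 36850 to 41900 over the 8 arrays. Level 4.03 served as a guide to background. It is the highest value of Xist on the 7 arrays with low Xist and of 3 Y-linked genes on the array with high Xist, WT replicate 1, and it was chosen with values known. Tyms (thymidylate synthase) lay between 2.59 and 3.15 on every array and was the only member near background in all 4 groups, so nothing is read from its differences. Arrays of 1 group were not always alike. The IKKa-AA replicates stood furthest apart: over all genes their difference had an SD of 0.431 on the log2 scale, against 0.292 to 0.336 in the other groups.

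The starts of some of these genes hold a sequence feature that the list was not chosen on. It is shown here for 5 licensing genes whose levels are described further on, and only windows with a match are printed. RefSeq promoter windows of the GRCm38.p6 build, 250 bases before to 50 bases from the gene's start, were matched by symbol for 37 of the 42 members. Each stretch runs 5′ to 3′ on the gene's own strand, from 170 bases before the start to 30 bases from it, and capitals mark matches to 4 E2F words (TTTCCCGC, TTTGGCGC, TTTCGCGC, TTTGCCGC) or to their reverse complements.
Cdc6, chr11:98907981-98908180 (plus strand): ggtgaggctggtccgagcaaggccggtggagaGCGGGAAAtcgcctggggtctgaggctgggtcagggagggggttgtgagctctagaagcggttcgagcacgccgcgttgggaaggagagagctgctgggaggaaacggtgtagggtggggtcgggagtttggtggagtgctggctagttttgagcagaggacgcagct
Mcm7, chr5:138171854-138172053 (minus strand): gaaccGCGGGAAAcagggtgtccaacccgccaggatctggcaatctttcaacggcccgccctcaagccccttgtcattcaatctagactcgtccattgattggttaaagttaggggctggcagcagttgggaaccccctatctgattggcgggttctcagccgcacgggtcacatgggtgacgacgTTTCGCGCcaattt
Mcm6, chr1:128359676-128359875 (minus strand): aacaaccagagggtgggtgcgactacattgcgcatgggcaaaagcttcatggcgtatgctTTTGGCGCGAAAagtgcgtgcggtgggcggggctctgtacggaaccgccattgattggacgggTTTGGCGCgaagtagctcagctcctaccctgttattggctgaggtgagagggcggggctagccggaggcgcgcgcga
Mcm5, chr8:75109339-75109538 (plus strand): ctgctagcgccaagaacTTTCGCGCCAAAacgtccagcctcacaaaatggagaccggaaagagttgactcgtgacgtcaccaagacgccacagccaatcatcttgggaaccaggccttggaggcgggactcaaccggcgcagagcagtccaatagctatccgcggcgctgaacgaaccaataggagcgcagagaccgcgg
Mcm3, chr1:20820283-20820482 (minus strand): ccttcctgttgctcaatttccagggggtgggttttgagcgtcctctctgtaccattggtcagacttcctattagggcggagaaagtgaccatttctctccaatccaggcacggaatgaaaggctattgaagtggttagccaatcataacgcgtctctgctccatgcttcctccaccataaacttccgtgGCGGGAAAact
An E2F word was present in 14 of the 37 members (37.8%), against 402 of 9887 measured genes (4.07%) and 744 of all 32851 windows (2.26%). Searches covered both strands, and TTTGGCGC and TTTCGCGC can overlap back to back. Among the 14, 6 members held at least 2 matches in a window. Of the licensing genes with a window, Mcm2, Orc2 and Orc6 held no match, nor did the other window of Mcm7. The CCAAT box was present in 24 of 37 members (64.9%) and in 42.3% of measured genes. An E-box (CACGTG) was found in 6 members (16.2%) and 10.8% of measured genes. The TCF word CTTTGAT, a form of the site bound by the partners of β-catenin, was in 0 of 37 member windows and 3.4% of measured genes. A match is only a run of letters in these windows, and no match says nothing of the factor. Of the 7 members that passed the test between stabilised β-catenin and wild type described further on, 5 had a window. An E2F word was present in 4 of these (Cdc6, Mcm7, Cdt1 and Lig1) and not in Rfc1. Of the 32 other members with a window, 10 held one, Mcm6 and Mcm5 among them.

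The replication genes were highest in the mice with stabilised β-catenin alone. The mean of bCATca was the highest of the 4 group means for 38 of 42 members, against 32.8% of all genes, and WT was the lowest for 32, against 33.3% of all genes. The double mutants lay between WT and bCATca for 31 members (26.2% of all genes). Expressed as the members' median distance from the WT mean, the WT arrays stood at 0.13 and -0.13, the IKKa-AA arrays at 0.40 and 0.04, the bCATca arrays at 0.37 and 0.66, and the double mutants at 0.25 and 0.25. IKKa-AA replicate 1 thus stood higher than bCATca replicate 1, and the groups overlapped at the level of the median. A single array led most genes: bCATca replicate 2 was the highest of the 8 for 35 of 42 members, against 19.6% of all genes. In bulk samples fewer cells of a type and less RNA per cell cannot be told apart, so these levels do not say how many cells were in S phase.

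**Figure D1:**
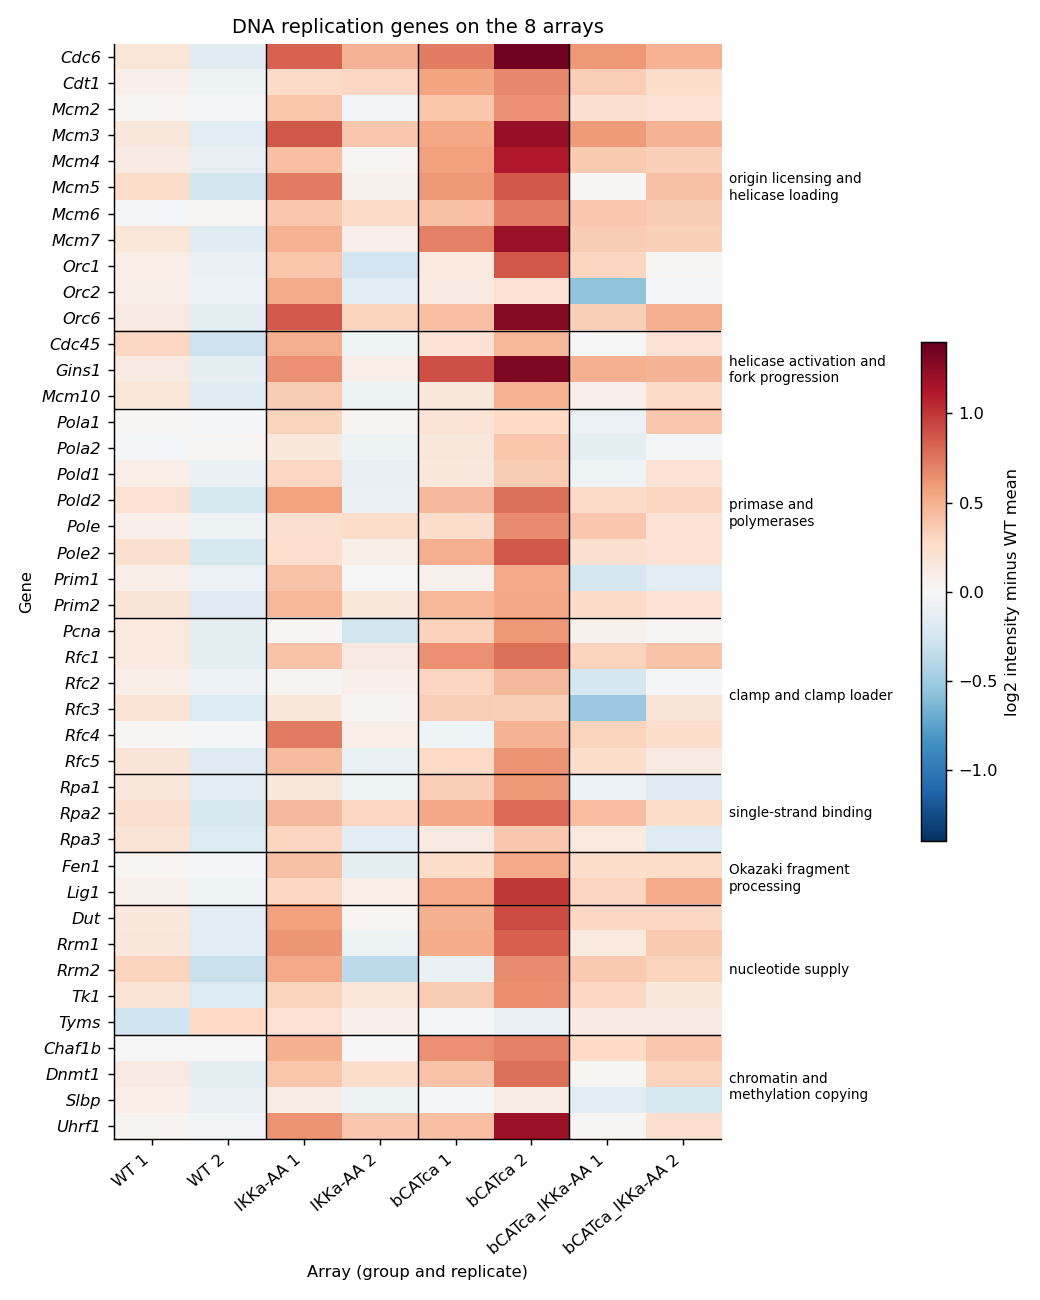
Log2 intensity of each measured replication gene (rows, grouped by role) on each of the 8 arrays (columns), as the difference from that gene's WT mean. bCATca replicate 2 is the array with the highest value for 35 of 42 members, and the replicates of IKKa-AA differ from each other more than those of the double mutants.

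**Figure D2:**
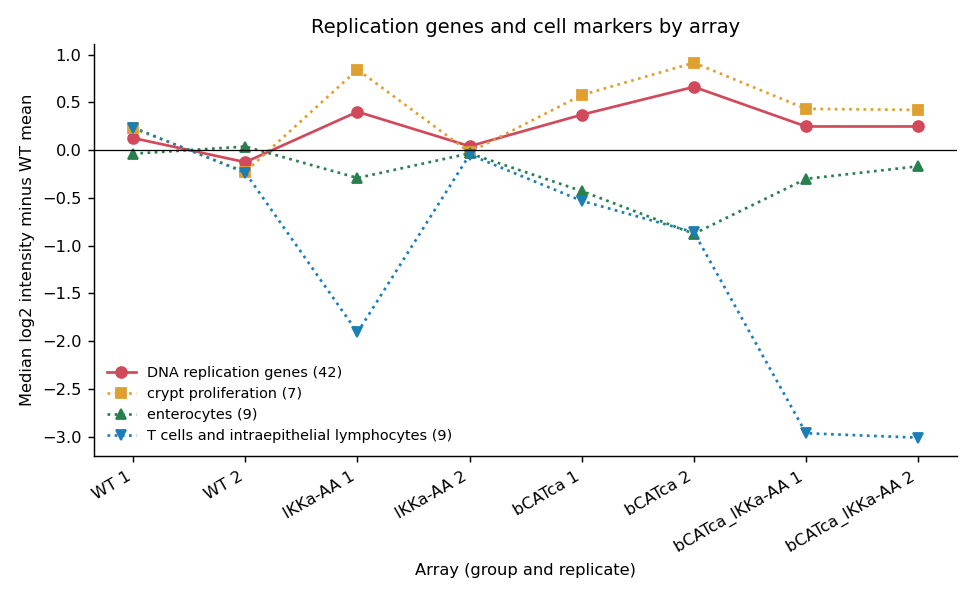
Median over the 42 members (y axis, log2 difference from the WT mean) on each array (x axis, grouped by genotype). Dotted lines give the same median for markers of crypt proliferation (7), enterocytes (9), and T cells and intraepithelial lymphocytes (9). For the members, the IKKa-AA arrays stand at 0.40 and 0.04, the bCATca arrays at 0.37 and 0.66, and both double mutant arrays at 0.25.

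In the mice with stabilised β-catenin alone, set against the wild type, 7 of the 42 replication genes rose, by 1.53 to 2.15 fold. They were Gins1, Cdc6, Mcm7, Mcm4, Lig1, Rfc1 and Cdt1, which sit at licensing, helicase activation, clamp loading and the sealing of Okazaki fragments. The test was limma's moderated test with Benjamini-Hochberg adjustment over all 12393 genes, called at an adjusted p under 0.05. Of all genes 5.74% were called higher and 3.55% lower, and no member was called lower. The members' median difference was 0.50 (lowest -0.06 for Tyms, highest 1.11 for Gins1), beside a median of 0.01 over all genes, and 41 of 42 differences were positive. At an unadjusted p under 0.05, 26 members were higher and 0 lower, against 17.0% and 12.5% of all genes. Both bCATca arrays lay above both WT arrays for 34 members, a pattern found in 33.5% of all genes, and below them for 0 (29.7% of all genes). These counts lean on single arrays: leaving out WT replicate 1, WT replicate 2 or bCATca replicate 2 left 0 members called, leaving out either double mutant array left 2 (Cdt1 and Gins1), and leaving out either IKKa-AA array, the most spread group, gave 14. Calls over all genes moved too. From 711 genes called higher, the number became 198 without WT replicate 1, 165 without WT replicate 2 or bCATca replicate 2, 453 without either double mutant array and 1133 without either IKKa-AA array. The members' median was 0.63 without WT replicate 1 and 0.39 without WT replicate 2.

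Gins1, a subunit of the GINS complex that completes the active helicase, showed the largest difference of all members. Its levels were 6.40 and 6.16 on the WT arrays, 6.92 and 6.38 with the AA allele, 7.18 and 7.59 with stabilised β-catenin, and 6.78 and 6.75 with both. Both bCATca arrays lay above the 6 others. The difference from WT was 1.11 ± 0.22 (SE, n = 2 against 2; 95% interval 0.61 to 1.60; limma adjusted p = 0.0204), or 2.15 fold. The other helicase activation factors differed less. Cdc45, which rides with the helicase, stood at 6.04 and 5.47 in WT and 5.95 and 6.22 in bCATca, which overlap (0.33 ± 0.25, adjusted p = 0.405). Mcm10 likewise overlapped, with a difference of 0.32 (adjusted p = 0.319).

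The licensing genes had the largest median difference of the roles, 0.74 over 11 genes, and 4 of them were called. Cdc6, the loader of the MCM ring, stood at 5.73 and 5.39 in WT and 6.28 and 6.92 in bCATca. Its values were 6.39 and 6.03 in IKKa-AA and 6.17 and 6.05 in the double mutants. The WT arrays were the lowest of all 8, and bCATca replicate 1 fell below IKKa-AA replicate 1. The difference between bCATca and WT was 1.04 ± 0.24 (limma adjusted p = 0.0342). Cdt1, the partner of Cdc6 in loading, had levels of 9.01 and 8.87 on the WT arrays, 9.22 and 9.23 with the AA allele, 9.50 and 9.62 with stabilised β-catenin, and 9.29 and 9.19 with both. Its bCATca arrays stood clear above all others, its replicates were close, and it rose by 0.62 ± 0.13 (limma adjusted p = 0.0292). The promoter windows of Cdt1 and Lig1 also hold an E2F word, which begins at base 33 of the gene for Cdt1 and base 27 for Lig1. Both words thus lie just downstream of the start, and both run past the downstream end of the span printed above.

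Among the 6 subunits of the MCM ring, Mcm7 and Mcm4 were called. Mcm7 stood at 9.81 and 9.48 on the WT arrays, 10.13 and 9.72 with the AA allele, 10.35 and 10.86 with stabilised β-catenin, and 10.003 and 9.978 with both, and rose by 0.96 ± 0.22 (limma adjusted p = 0.035). Mcm4 stood at 8.14 and 7.91 on the WT arrays, 8.45 and 8.06 with the AA allele, 8.60 and 9.14 with stabilised β-catenin, and 8.39 and 8.36 with both, and rose by 0.84 ± 0.21 (limma adjusted p = 0.0466). For both genes the bCATca arrays were the 2 highest. The other 4 subunits were also higher on both bCATca arrays than on both WT arrays but missed the threshold: Mcm3 by 0.88 (adjusted p = 0.0646), Mcm5 by 0.74 (adjusted p = 0.11), Mcm6 by 0.57 (adjusted p = 0.0513) and Mcm2 by 0.52 (adjusted p = 0.0942). All 6 act as 1 ring, so their differences of 0.52 to 0.96, on the brightest probe sets, describe parts of a single complex. The order of the subunits depends on the probe set. The other probe set of Mcm2 differed by 1.03, and the 5 probe sets of Mcm3 by 0.12 to 0.89. Within the origin recognition complex, Orc6 differed by 0.85 (adjusted p = 0.0971) and Orc1 by 0.50 (adjusted p = 0.268). Orc2, at 6.11 and 5.93 in WT and 6.14 and 6.24 in bCATca, differed by 0.17 (adjusted p = 0.681). Its dimmer probe sets, also above the background guide, differed by 0.58 and 0.02, so its size depends on the probe set.

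**Figure D3:**
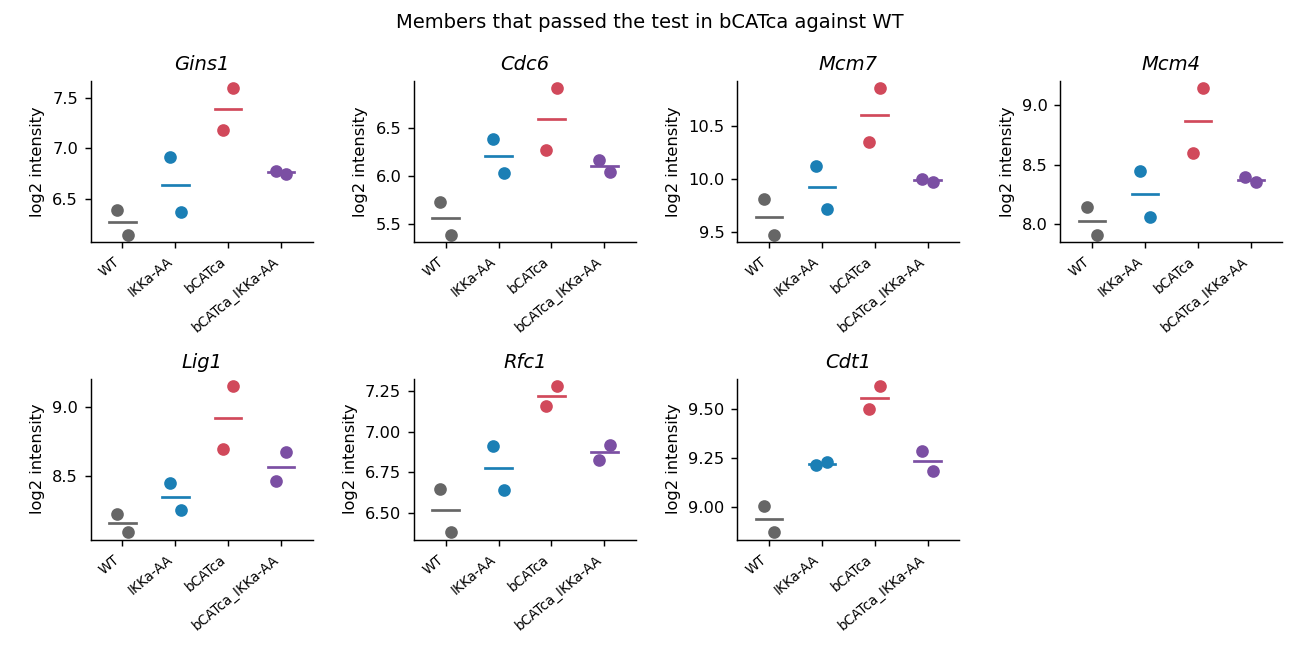
Log2 intensity on each array (points) with the group mean (line) for the 7 genes called higher in bCATca than in WT, 1 panel a gene, with each panel's y axis on its own range. In every panel both bCATca points lie above both WT points, and the double mutant points lie below both bCATca points.

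At the fork, the clamp loader's large subunit Rfc1 was the only clamp or clamp loader gene called. It stood at 6.65 and 6.38 on the WT arrays, 6.92 and 6.64 with the AA allele, 7.16 and 7.28 with stabilised β-catenin, and 6.83 and 6.92 with both, and it rose by 0.71 ± 0.16 (limma adjusted p = 0.0333). The bCATca arrays were again the highest pair. Pcna, the clamp, had levels of 11.21 and 10.94 in WT and 11.40 and 11.68 in bCATca, a difference of 0.47 (adjusted p = 0.112). The small loader subunits Rfc2 to Rfc5 differed by 0.21 to 0.45. Lig1, which seals Okazaki fragments, stood at 8.22 and 8.10 on the WT arrays, 8.45 and 8.26 with the AA allele, 8.70 and 9.15 with stabilised β-catenin, and 8.46 and 8.68 with both. It rose by 0.76 ± 0.18 (limma adjusted p = 0.0399), although bCATca replicate 1 and double mutant replicate 2 were nearly level. Fen1, the nuclease that trims the same fragments, differed by 0.39 (adjusted p = 0.217).

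None of the 8 primase and polymerase genes was called, with a median difference of 0.37. Pole2, an accessory subunit of the leading strand polymerase, came closest: 6.40 and 5.96 in WT against 6.68 and 7.05 in bCATca, a difference of 0.69 ± 0.19 (adjusted p = 0.0579). Prim2 of the primase differed by 0.51 (adjusted p = 0.0988) and Pold2 by 0.62. On their brightest probe sets, the catalytic subunits Pole, Pola1 and Pold1 differed less, by 0.45, 0.23 and 0.25. The other probe set of Pold1, also above the background guide, differed by 0.88, so its place here depends on the probe set. Single-strand binding gave a similar picture, with Rpa2 at 0.67 (adjusted p = 0.0588), Rpa1 at 0.48 and Rpa3 at 0.25.

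Nucleotide supply had 0 of 5 genes called by limma and a median of 0.50. Dut, which clears dUTP, stood at 7.76 and 7.47 in WT and 8.12 and 8.53 in bCATca (0.71, adjusted p = 0.0802). Rrm1, the large subunit of ribonucleotide reductase, differed by 0.68 (adjusted p = 0.11) and thymidine kinase Tk1 by 0.50 (adjusted p = 0.108). The dimmer probe sets of Rrm1 and Dut, also above the background guide, differed by 0.16 and 0.04, so the size for these genes depends on the probe set. The small reductase subunit Rrm2 differed by 0.28 with overlapping arrays. In the chromatin group Chaf1b, a subunit of the factor that deposits histones behind the fork, lay just outside the threshold. Its levels of 5.81 and 5.82 in WT and 6.45 and 6.51 in bCATca differed by 0.67 ± 0.17 (adjusted p = 0.0501). Uhrf1, which finds hemimethylated DNA for Dnmt1, differed by 0.81 (adjusted p = 0.0718) and Dnmt1, the maintenance methyltransferase, by 0.58 (adjusted p = 0.081). Slbp, which binds the stem-loop of histone mRNAs, was the flattest member well above background, at 9.47 and 9.28 in WT and 9.36 and 9.48 in bCATca (0.05, adjusted p = 0.859).

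**Figure D4:**
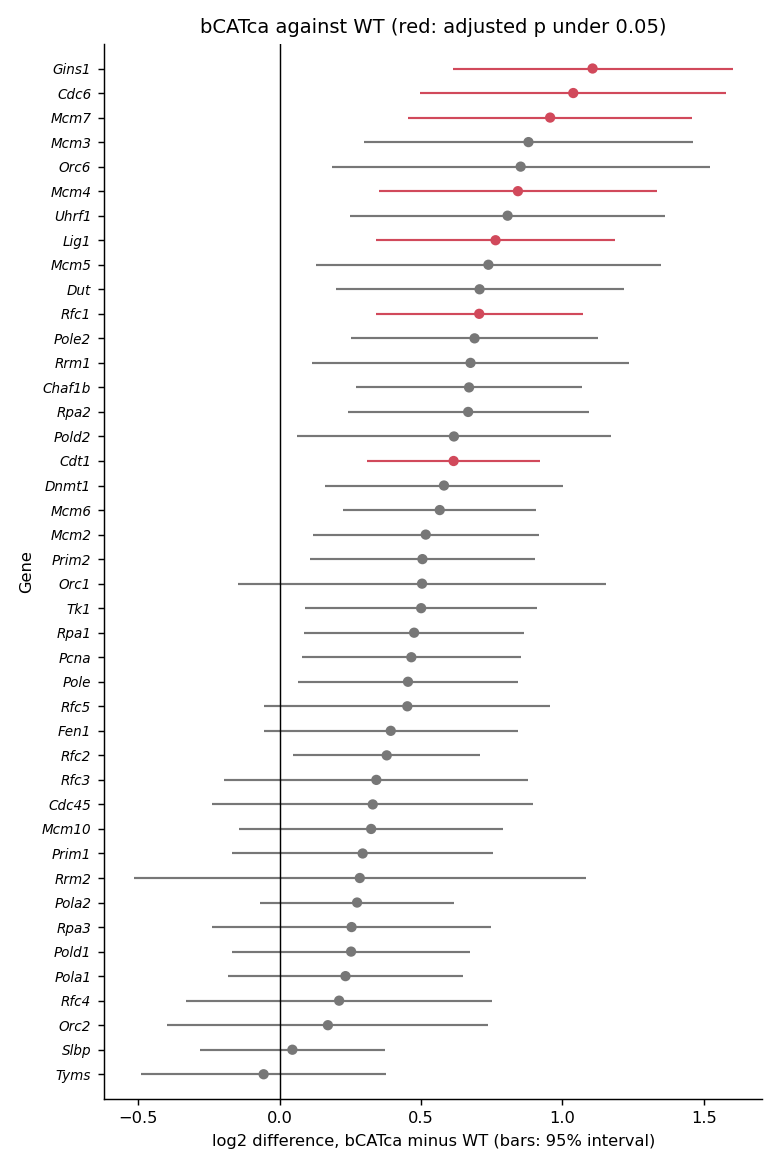
Difference in log2 intensity between bCATca and WT for the 42 measured genes (points), with the 95% interval from limma (bars), ordered by the difference. The 7 called genes run from 0.62 (Cdt1) to 1.11 (Gins1), and Tyms at -0.06 is the only point below 0.

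Markers of cell makeup moved between the same groups. The linear sum of 9 enterocyte genes was 66160 and 69020 in WT and 52470 and 36470 in bCATca. All 9 were lower in bCATca, and 2 were called lower by limma: Fabp2 (-0.66, adjusted p = 0.0492) and Mttp (-0.60, adjusted p = 0.0498). The 7 measured mitosis genes used as crypt proliferation markers had medians of 0.23 and -0.23 on the WT arrays, 0.84 and -0.02 with the AA allele, 0.58 and 0.92 with stabilised β-catenin, and 0.43 and 0.42 with both. All 7 were higher in bCATca than in WT, and limma called 0 (4 at an unadjusted p under 0.05). The order of the arrays was close to that of the replication genes, with IKKa-AA replicate 1 above replicate 2. T cell and intraepithelial lymphocyte markers summed to 6411 to 8306 in WT, 4000 to 5214 in bCATca, 1999 and 7394 in IKKa-AA, and 802 to 1081 in the double mutants. B and plasma cell markers summed to 1487 and 1909 in WT, 3940 and 2948 in bCATca, 277.6 and 3821 in IKKa-AA, and 118.5 and 119.1 in the double mutants. Control probe sets for the 3′ part of 18S RNA stood at 11.32 and 11.69 in WT and between 11.77 and 12.39 on the other arrays. The part of these differences in the result was not tested.

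Most replication genes were lower in the double mutants than with stabilised β-catenin alone, but 0 members were called by limma. The double mutants stood below bCATca for 39 of 42 members, with a median difference of -0.34 (lowest -0.67, highest 0.17), beside 0.00 over all genes. At an unadjusted p under 0.05, 11 members were lower and 0 higher, against 8.2% and 6.58% of all genes. Of all genes 0.807% were called lower and 0.403% higher. Both double mutant arrays lay below both bCATca arrays for 29 members (24.2% of all genes) and above them for Tyms alone (22.6%). This comparison uses the bCATca arrays again, so it is not independent of the comparison with WT. Without bCATca replicate 2 the median became -0.19. Cell type markers differed as well. All 9 enterocyte markers were higher in the double mutants, with a median difference of 0.44, 0 calls by limma (3 at an unadjusted p under 0.05) and sums of 51730 and 59200 against 52470 and 36470. The 9 T cell markers had a median difference of -2.10 with 0 calls (6 lower at an unadjusted p under 0.05). All 5 B and plasma cell markers were lower, and limma called Igha (-5.96, adjusted p = 0.0444) and Ms4a1 (-1.14, adjusted p = 0.0276). The 7 crypt proliferation markers were all lower, with a median of -0.33 and 0 calls. Their part in the result was not tested.

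Rpa1, the large subunit of the single-strand binding complex, had the smallest p. It stood at 9.33 and 9.59 in bCATca and 8.90 and 8.80 in the double mutants, which were below the IKKa-AA arrays too (9.13 and 8.92). The difference was -0.61 ± 0.17 (95% interval -0.9963 to -0.2195; limma adjusted p = 0.142). Rfc2, at 8.84 and 8.99 against 8.30 and 8.50, differed by -0.51 ± 0.14 (adjusted p = 0.146), and Gins1 by -0.62 ± 0.22 (adjusted p = 0.236). For Rpa1 and Rfc2 the double mutants also lay below the wild-type mean, at -0.13 in both genes. Uhrf1 had the most negative difference, -0.67, and its arrays did not overlap. Rfc4 (0.07), Rrm2 (0.05) and Tyms were the 3 members with a positive difference.

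With no stabilised β-catenin, the AA allele left the replication genes with small differences from the wild type that mostly followed 1 array. The difference between IKKa-AA and WT was positive for 41 of 42 members, with a median of 0.22, but 0 were called by limma, as 0.0% of all genes were called higher and 0.00807% lower. At an unadjusted p under 0.05, 2 members were higher and 0 lower, against 5.16% and 6.54% of all genes. The smallest p belonged to Cdc6 (0.65 ± 0.24, adjusted p = 0.362), Mcm3 (0.62 ± 0.25, adjusted p = 0.399) and Mcm6 (0.32 ± 0.15, adjusted p = 0.438). Mcm3 stood at 7.73 and 7.41 in WT and 8.44 and 7.94 in IKKa-AA, and Mcm6 at 8.85 and 8.90 in WT and 9.26 and 9.14 in IKKa-AA. Both IKKa-AA arrays lay above both WT arrays for 13 members and below them for 0, against 21.2% and 24.7% of all genes. All 42 members stood above their WT mean on IKKa-AA replicate 1, and 39 were higher there than on replicate 2, by a median of 0.40. Without replicate 1 the median difference from WT became 0.04, and without replicate 2 it became 0.40; without WT replicate 2 it was 0.11 and without WT replicate 1 it was 0.34. Replicate 1 was also the IKKa-AA array with the lower T cell marker sum (1999 against 7394), the lower enterocyte marker sum (52650 against 65790) and the higher crypt proliferation median (0.84 against -0.02). Their part in the result was not tested. Pcna was the 1 member with a negative difference, -0.12.

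On the AA background, stabilised β-catenin was not accompanied by higher replication gene levels. The double mutants differed from IKKa-AA by a median of -0.02, with 18 positive and 24 negative members (lowest -0.48, highest 0.26). No member passed an unadjusted p under 0.05 in either direction, against 4.48% of all genes higher and 2.45% lower, and limma called 0 members (0.0484% of all genes higher and 0.00807% lower). Prim1, the catalytic primase subunit, had the smallest p: 8.74 and 8.33 in IKKa-AA against 8.10 and 8.19 in the double mutants (-0.39 ± 0.20, adjusted p = 0.786). Orc2 differed by -0.48 ± 0.25 (adjusted p = 0.786) and Uhrf1 by -0.37 ± 0.24 (adjusted p = 0.839). The direction of the median turned with the IKKa-AA array used: it was 0.14 without replicate 1 and -0.22 without replicate 2. Lig1 was the only member with both double mutant arrays above both IKKa-AA arrays, a pattern of 19.9% of all genes, and Prim1, Rfc2, Rpa1, Slbp and Uhrf1 showed the reverse (13.8% of all genes).

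The 2 comparisons of stabilised β-catenin with its own control share no array, so they can be set side by side. For 39 of 42 members the difference was larger in size without the AA allele than with it, as for 68.8% of all genes. The difference was positive in both for 18 members, and positive without the allele but negative with it for 23. Cdc6 went from 1.04 to -0.11, Mcm3 from 0.88 to -0.09, Gins1 from 1.11 to 0.12 and Mcm7 from 0.96 to 0.07. Lig1 kept the most of the called genes, at 0.76 and 0.22. The difference between the 2 effects, the interaction of the alleles, is the test of this contrast. It was negative for 41 of 42 members, with a median of -0.57, beside 0.00 over all genes. Limma called 0 members, as it called 0.0484% of all genes negative and 0.0403% positive. At an unadjusted p under 0.05, 20 members were negative and 0 positive, against 7.84% and 7.9% of all genes. The smallest p belonged to Cdc6 (-1.14 ± 0.33, adjusted p = 0.193), Uhrf1 (-1.17 ± 0.34, adjusted p = 0.193) and Gins1 (-0.99 ± 0.31, adjusted p = 0.205). These data therefore do not show, at the threshold used, that the effect of β-catenin on any single replication gene differs between the 2 backgrounds. With 1 array left out, the interaction median ranged from -0.73 to -0.43. Crypt proliferation markers were all negative in the interaction (-0.51 to -0.89) and enterocyte markers all positive (0.26 to 2.13). B and plasma cell markers were negative (-0.61 to -5.03), while T cell markers went both ways. Limma called none of these markers, and their part in the result was not tested.

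**Figure D5:**
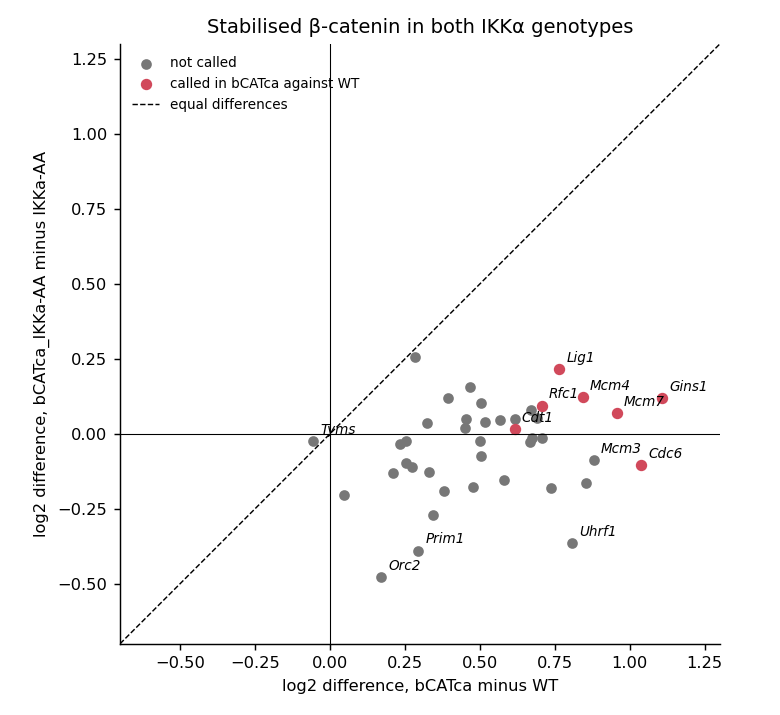
Difference of bCATca from WT (x axis, log2) against the difference of the double mutants from IKKa-AA (y axis, log2) for each member, with the 7 called genes marked. The points spread from -0.06 to 1.11 along x and from -0.48 to 0.26 along y.

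Against the wild type, the double mutants were slightly higher for most members. The difference was positive for 34 of 42, with a median of 0.22 (lowest -0.29, highest 0.55). The lowest was that of Orc2, whose dimmer probe sets differed by 0.23 and 0.23. Limma called 0 members, while 0.984% of all genes were called higher and 0.46% lower; 2 members were higher and 0 lower at an unadjusted p under 0.05, against 9.38% and 7.56% of all genes. Mcm6 stood at 8.85 and 8.90 in WT and 9.26 and 9.24 in the double mutants (0.37 ± 0.15, adjusted p = 0.261). Cdc6 differed by 0.55 ± 0.24 (adjusted p = 0.293) and Gins1 by 0.49 ± 0.22 (adjusted p = 0.303). Arrays did not overlap for 20 members in the higher direction (28.2% of all genes) and for Prim1 and Slbp in the lower (23.7%). Without WT replicate 2 the median was 0.08, and without WT replicate 1 it was 0.36. By the median over a list's markers, T cell markers stood furthest from the WT mean in these arrays, at -2.96 and -3.01. Limma called 4 of 9 of them lower. B and plasma cell markers summed to 118.5 and 119.1 against 1487 and 1909 in WT, and Igha differed by -4.95 without being called. The part of these markers in the result was not tested.

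Averaged over both IKKα genotypes, 4 arrays against 4, the stabilised β-catenin arrays were higher for 38 members, with a median of 0.26. Limma called 0 members, against 2.99% of all genes called higher and 1.22% lower, and 12 passed an unadjusted p under 0.05 in the higher direction and 0 in the lower (13.9% and 9.59% of all genes). The smallest p belonged to Gins1 (0.61 ± 0.15, adjusted p = 0.0623), Lig1 (0.49, adjusted p = 0.0725) and Rfc1 (0.40, adjusted p = 0.0862). Without IKKa-AA replicate 1, 6 members were called, while over all genes the calls went from 370 higher and 151 lower to 837 and 659. Averaged over both β-catenin genotypes, the AA arrays had a median of -0.05 with 11 positive members. Limma called 0 members (0.0% of all genes higher and 0.0403% lower), and at an unadjusted p under 0.05, 2 were lower and 0 higher (6.75% and 5.41% of all genes). Rpa1 (-0.28, adjusted p = 0.395), Pcna (-0.28, adjusted p = 0.41) and Rfc2 (-0.23, adjusted p = 0.427) had the smallest p.

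Replication genes outside the list were also mostly higher in bCATca than in WT. Of 46 further genes of the process 36 were measured, 32 had a positive difference, the median was 0.40, and 1 was called higher, beside 5.74% of all genes. This was Timeless, which protects the fork and rose by 0.78 ± 0.16 (limma adjusted p = 0.0251). The 20 measured genes of E2F and the G1/S switch had a median of 0.11, with 0 called higher and 2 called lower, beside 3.55% of all genes called lower. These were Rb1, the retinoblastoma protein that holds E2F back (-0.92 ± 0.20, limma adjusted p = 0.028), and Cdkn1a, an inhibitor of the cyclin-dependent kinases (-0.69 ± 0.16, adjusted p = 0.0365). Rb1 stood at 7.56 and 7.47 in bCATca and between 7.83 and 8.48 on the other arrays. The 8 measured S-phase checkpoint genes had a median of 0.35 and 0 calls, the smallest adjusted p being 0.0934 for Atr. In the other 7 comparisons limma called 0 genes of these 3 lists, and at an unadjusted p under 0.05 the most that passed in 1 direction was 8 of the 36 further replication genes, negative in the interaction, beside 7.84% of all genes.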

How the data were processed

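Expression was measured on Affymetrix arrays, 1 array per sample, 8 in all. The authors' deposited values are linear intensities after RMA with the affy package, per the submitters' processing notes. RMA evens the arrays' distributions, so a shift shared by most genes would not show. Log2 was taken of the deposited intensities. The annotation gave 20380 of 22690 probe sets 1 symbol, 691 several and 1555 none; 64 were controls. Symbols were updated through Entrez. Each of 12393 genes took its brightest probe set. Groups were compared with limma 3.58.1 in R 4.3.3, with 1 mean per group over all 8 arrays, 4 residual degrees of freedom and Benjamini-Hochberg adjustment over all genes. The precision is limited by 2 arrays per group. Members and lists were chosen with earlier results of these data known. Values are named for called members or, where none was called, for the 3 smallest p, and for 1 or 2 members of each role. Replicate numbers were checked as pairs: correlations of replicate differences ran from -0.45 to 0.15, so they do not pair the samples. Scripts were tested on simulated data. Alternatives changed the probe set rule, normalization, filter, offset, variance model, block and samples.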

Additional observations from a re-analysis of the deposited data

How the results depend on the processing

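With 2 arrays per group, the limit is the spread between replicates. The 7 genes called higher in bCATca than in WT became 1 (Gins1, limma adjusted p = 0.0395) in the fit with the replicate number as a block, although the numbers do not pair the samples; with other probe set rules, normalizations, filters, offsets, variance models or only the compared groups the count stayed between 5 and 9. The genes were not all the same. With 16 added to the intensities 4 of the 7 were still called, with the mean of a gene's probe sets 5, with quantile or cyclic loess normalization 5, and in the fit of all probe sets 6. Mcm4 was lost under each of these 5 alternatives. Leaving out 1 array gave 0 to 14 calls. For the β-catenin effect averaged over both IKKα genotypes, 0 calls became 0 to 6 when 1 array was left out: 6 without IKKa-AA replicate 1 and 1 without bCATca replicate 1. The other 6 comparisons stayed at 0 calls under every alternative run, the replicate block included. The single genes followed were the called members or, where none was called, those with the smallest p. For these, 414 values kept their side of the threshold, 49 lost it, 4 gained it and 0 changed direction. These genes were picked for strength, so the tally does not describe all members. On IKKa-AA replicate 1, 42 of 42 members stood above their WT mean, and on replicate 2, 25 did. The members' median difference of the double mutants from IKKa-AA went from -0.02 to 0.14 without IKKa-AA replicate 1.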

Other observations

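The probe sets of a gene did not always give like values. The members had 77 probe sets, and 22 members had more than 1 above the background guide. For 21 of these every such probe set was higher in bCATca than in WT, and for 18 every such probe set was lower in the double mutants than in bCATca. The exception in the first count was the second probe set of Pola2. It was above the guide of 4.03 only through its WT mean of 4.04, so nothing is read from its difference. In the second count Orc2, Rfc4 and Rrm2, besides Pola2, had such a probe set that was higher in the double mutants. Size varied more than direction. Pold1's probe sets differed by 0.25 and 0.88, those of Rfc4 by 0.21 and 0.80, and those of Mcm2 by 0.52 and 1.03. Those of Dut differed by 0.71 and 0.04, and those of Rrm1 by 0.68 and 0.16. The brightest probe set was thus the smaller of the 2 for Pold1, Rfc4 and Mcm2. The probe sets that stand for Fen1 and Rrm2 end in _x_at, and those for Mcm2, Mcm3 and Mcm7 in _s_at, design classes that can match other transcripts as well.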
